A study of Mus musculus with 42 samples.

Results

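A group of 10 genes of the actin cytoskeleton and of serum response factor (SRF), the transcription factor that controls many of them, were followed through RNA polymerase II (Pol II) and H3K27ac ChIP-seq of macrophages: Actb, Actg1, Srf, Vcl, Flna, Myh9, Tln1, Tpm4, Cnn2 and Cfl1. They were chosen by symbol, 10 of the 21897 protein-coding genes of the mouse mm10 annotation, after a lower Pol II value of Actb in Nur77-deficient macrophages at 1 h of LPS had been seen. The values of Actb at 1 h, between genotypes and against 0 h, are therefore a description with no test, and counts of calls at 1 h are given over the other 9 genes. The question is whether the lower Actb signal is shared by the genes that build and regulate the same filaments.

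The cells were bone marrow-derived macrophages of male mice aged 6 to 12 weeks, grown for 7 days with L929-conditioned medium. WT mice were littermates of the Nur77-KO mice, in which Nr4a1, the gene of the nuclear receptor Nur77, had been deleted in the whole body by Cre under the CMV promoter acting on a loxP-flanked Nr4a1. The genotype label of the KO samples names cre, whereas the study's methods describe Nur77-KO mice without Cre, so it is not settled here whether the KO cells still carried it. Cells of each genotype were left untreated (0 h) or stimulated with 100 ng/ml LPS for 1 h or 18 h, which makes 6 groups of 3 libraries for each antibody (36 libraries) and 1 input library per group (6). The labels do not say whether the 3 libraries of a group came from separate animals, so p-values measure only the spread between these libraries.

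Actin genes and SRF form a feedback loop. Free actin monomers bind the coactivators MRTF-A and MRTF-B and keep them from SRF. When monomers are drawn into filaments, the coactivators enter the nucleus and bind SRF on CArG boxes, and transcription of actin and of many actin-binding proteins goes up. A separate group of SRF partners, the ternary complex factors of the Elk family, links SRF to MAP kinase signalling and to early-response genes such as Egr1. In macrophages the actin network carries spreading, migration and phagocytosis, and LPS reshapes it.

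A CArG box, the SRF binding sequence, was searched as its 10-letter consensus on RefSeq promoter windows (GRCm38.p6, 250 bases before to 50 after the gene start). A window was matched for 9 of the 10 genes, all but Actb. The box was found in 4 of these 9, Actg1, Srf, Vcl and Cnn2, whereas 1.63% of all 32851 promoter windows of the same length held it. No match was found in the windows of Flna, Myh9, Tln1, Tpm4 and Cfl1. The AP-1 sequence TGACTCA, read on both strands, was found in none of the 9 windows and in 5.20% of all of them. The 4 promoters with a box are shown because Pol II on their genes responded in different ways. Each runs 5′ to 3′ on the strand of its gene from 250 bases before the RefSeq start and ends before the start in the annotation used for the Pol II values, and capitals mark the CArG box. The boxes lie at -90 to -81 in Actg1, at -82 to -73 and -62 to -53 in Srf, at -227 to -218 in Vcl and at -56 to -47 in Cnn2, counted from the RefSeq start.
Actg1, chr11:120348543-120348745, minus strand: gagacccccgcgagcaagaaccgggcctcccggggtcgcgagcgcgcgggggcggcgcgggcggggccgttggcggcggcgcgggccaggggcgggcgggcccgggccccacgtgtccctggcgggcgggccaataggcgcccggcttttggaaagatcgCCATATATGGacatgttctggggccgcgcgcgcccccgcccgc
Srf, chr17:46556176-46556412, minus strand: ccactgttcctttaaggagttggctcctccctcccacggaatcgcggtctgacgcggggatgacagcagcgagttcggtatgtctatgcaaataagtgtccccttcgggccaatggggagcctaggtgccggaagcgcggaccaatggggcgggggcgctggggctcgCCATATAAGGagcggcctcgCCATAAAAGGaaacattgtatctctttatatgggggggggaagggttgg
Vcl, chr14:20929148-20929397, plus strand: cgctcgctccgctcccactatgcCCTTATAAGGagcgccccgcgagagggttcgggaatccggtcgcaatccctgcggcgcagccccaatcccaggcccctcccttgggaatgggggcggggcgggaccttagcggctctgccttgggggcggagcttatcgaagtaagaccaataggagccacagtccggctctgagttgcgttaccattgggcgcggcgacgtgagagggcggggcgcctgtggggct
Cnn2, chr10:79988350-79988583, plus strand: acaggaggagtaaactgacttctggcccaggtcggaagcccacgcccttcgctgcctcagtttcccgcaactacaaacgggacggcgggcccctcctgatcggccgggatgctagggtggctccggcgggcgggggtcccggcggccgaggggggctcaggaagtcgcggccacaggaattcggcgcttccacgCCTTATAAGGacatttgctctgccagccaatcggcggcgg

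The measure of a gene is the normalized tag count, that is, ChIP tags per 10 M tags of the library, in enriched regions that overlap the gene body ± 500 bp for Pol II or the gene start ± 2500 bp for H3K27ac. Where a region reaches beyond the window, its tags were shared in proportion to the overlap, so the value carries no detail of position within a region. All 10 genes had a region in all 18 libraries of each antibody, as had 10648 genes for Pol II and 10437 for H3K27ac. Differences were tested with limma on log2(normalized tags + 10) across all genes that had a region in at least 2 of the 3 libraries of a group compared, and a gene was called at a Benjamini-Hochberg adjusted p below 0.05 over all genes tested. Fold changes are on that scale and understate those of low genes.

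Libraries held 21.7 to 36.1 M tags for Pol II, 13.5 to 55.4 M for H3K27ac and 25.6 to 45.3 M for input, and the H3K27ac libraries of KO were deeper (23.6 to 55.4 M) than those of WT (13.5 to 31.1 M). Pol II on Nr4a1 was 188 to 208 tags in WT and 70.2 to 87.8 in KO at 0 h, 23.0 to 30.4 in WT and 33.5 to 39.0 in KO at 1 h, and at 18 h 0 to 7.46 in WT and 0 in all 3 KO libraries. H3K27ac at the Nr4a1 start overlapped between the genotypes at each time (68.5 to 85.5 tags in WT and 61.4 to 84.4 in KO at 0 h) and so checks no genotype label of that antibody. Pol II on Nr4a1 was lower in KO at 0 h, but at 1 h all 3 KO libraries lay above all 3 WT libraries, against the direction that the deletion would give, so it does not check the labels at 1 h. KO and WT at 1 h are the groups as labelled. All 8 macrophage markers had Pol II in all groups, with summed values of 22548 to 48878 tags per library. The 11 stromal and smooth muscle markers summed to 189 to 366 tags, with Col1a1, Col1a2, Col3a1, Des and Dcn at 0 in all 18 libraries and Acta2 at 51.1 to 166. Granulocyte markers (5 genes) summed to 0 to 45.3 tags of Pol II and lymphocyte markers (4 genes) to 41.4 to 161, and both differed between the genotypes at 1 h (values with the macrophage markers). Replicates of Pol II correlated across genes at r 0.985 to 0.993. In H3K27ac, the KO groups of 1 h and 18 h were split. KO and WT libraries of the same time correlated at 0.981 to 0.985 at 0 h, KO 1 h replicate 1 with the WT 1 h libraries at 0.978 to 0.980, and KO 18 h replicates 2 and 3 with those of WT at 0.979 to 0.982. KO 1 h replicates 2 and 3 correlated at 0.991 with each other, but at 0.903 to 0.905 with the WT 1 h libraries and at 0.910 to 0.912 with replicate 1. KO 18 h replicate 1 correlated at 0.913 to 0.914 with its own group, and at 0.904 and 0.905 with KO 1 h replicates 2 and 3. Whether labels or cells were mixed was not settled, nor which of the KO 1 h libraries represent that group. H3K27ac comparisons are therefore given with all libraries and without KO 1 h replicate 1 and KO 18 h replicate 1, named the 2 libraries from here on, a setting in which KO at 1 h rests on replicates 2 and 3. For comparisons with KO at 1 h a setting added after the data were seen kept replicate 1 as the only KO 1 h library and left out KO 18 h replicate 1. There the lone library is assumed to vary like the other groups. All groups of an antibody share 1 estimate of the spread. With all libraries, the 2 libraries thus also enter the p-values of H3K27ac comparisons that do not hold them.

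Actb was among the genes with the most Pol II per length. Its mean over the 18 libraries ranked 8 among 14004 genes with a region, and 13 among 12672 genes for H3K27ac. In WT at 0 h it held 1096 ± 33.5 Pol II tags per kb of window (SD, n = 3), Actg1 389 ± 18.0, Cfl1 142 ± 29.1, Tln1 127 ± 8.57, Flna 91.5 ± 11.0, Tpm4 54.4 ± 2.25, Myh9 32.8 ± 3.49, Srf 19.0 ± 2.65, Vcl 12.2 ± 1.10 and Cnn2 9.59 ± 3.55. In this order of levels, Cfl1 and Tln1 lay within their spread of each other, as did Vcl and Cnn2, and the other neighbours were further apart than their SDs. Input values in the Pol II windows were at most 2.65% of the ChIP mean for Actb and at most 9.52% for each of Actg1, Srf, Flna, Myh9, Tln1 and Cfl1, up to 18.1% for Tpm4, 33.1% for Cnn2 and 179% for Vcl, a long gene with thin coverage.

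**Figure D1:**
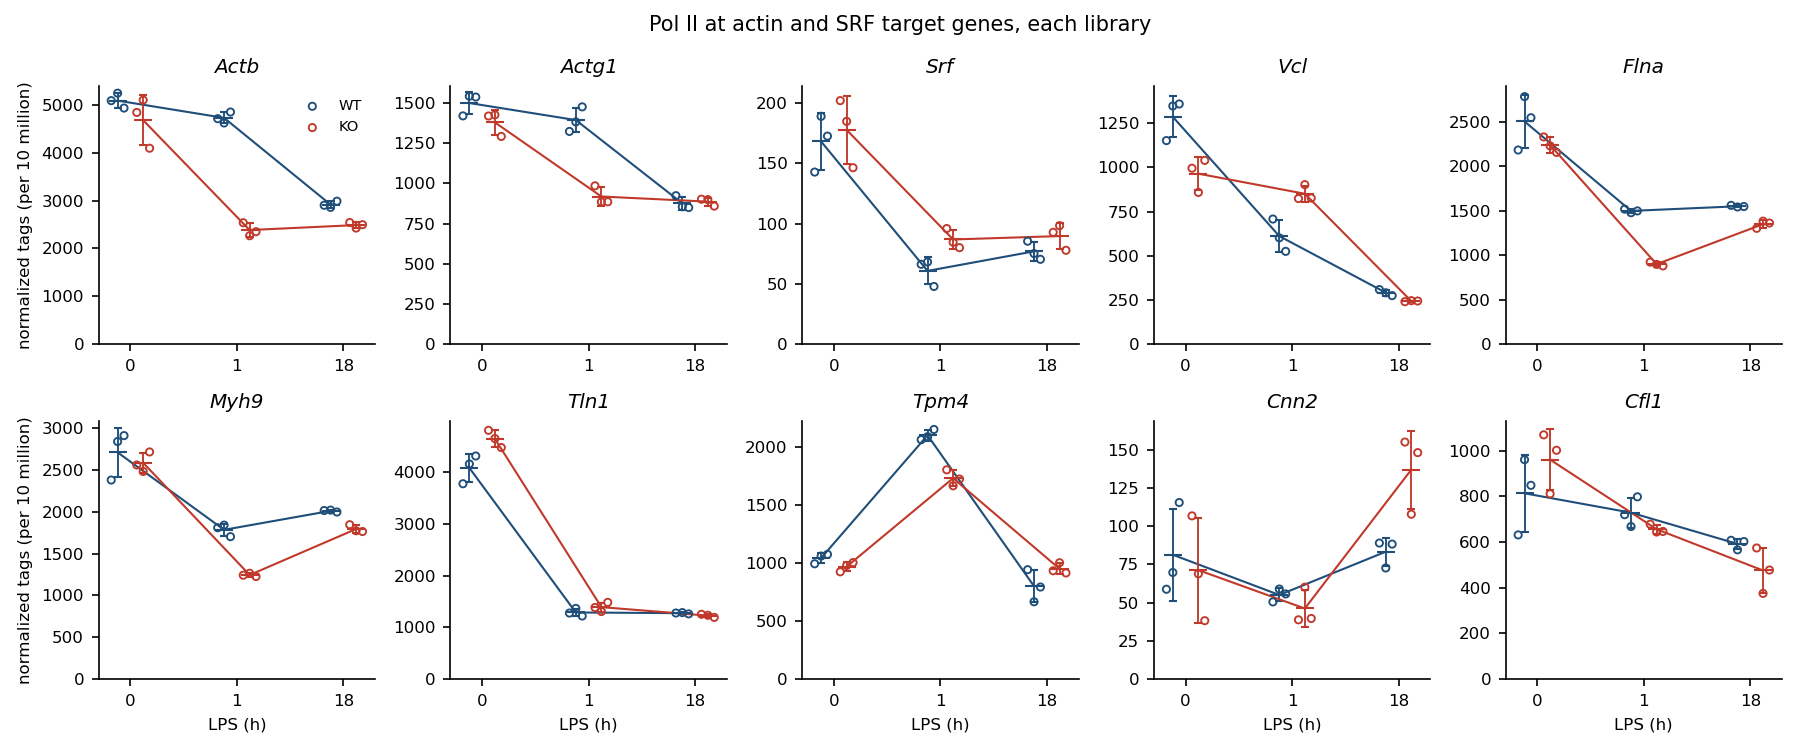
Pol II on the 10 genes, in normalized tags per 10 M over the gene body ± 500 bp, against hours of LPS (equally spaced, not to scale), for WT and KO. Open circles are libraries, dashes with bars are means ± SD of 3 libraries, and lines join the means; at 1 h the KO libraries of Actb lie at 2265 to 2537 and those of WT at 4618 to 4847.

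Actb encodes beta-actin, the main cytoplasmic actin (chr5:142903115-142906754, minus strand, ENSMUSG00000029580). Its Pol II values in WT were 5085, 5240 and 4930 tags at 0 h, 4708, 4618 and 4847 after 1 h, and 2901, 2856 and 2986 after 18 h. In KO they were 4838, 5097 and 4092 at 0 h, 2537, 2265 and 2349 after 1 h, and 2541, 2425 and 2496 after 18 h. The genotypes overlapped at 0 h and were apart at 1 h and at 18 h, and the KO values at 1 h already overlapped those of KO at 18 h, whereas the WT values at 1 h were all between those of WT at 0 h and 18 h. At 1 h the KO mean was 0.505 times that of WT, a log2 difference of -0.99, with 1.31% of all genes tested at or below it. This is the value that led to the choice of genes and it was not tested. At 0 h the difference was -0.13 (95% interval -0.27 to 0.01, limma adjusted p = 0.317), and at 18 h Actb was lower in KO by a log2 difference of -0.23 (SE 0.07, adjusted p = 0.021). The call at 18 h was lost under 6 alternatives, among them leaving out any 1 replicate number. Fewer cells with polymerase on a gene and less polymerase per cell cannot be told apart in such bulk libraries.

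Against 0 h, the first hour of LPS brought a log2 change of Actb of -0.11 in WT but of -0.96 in KO, again given with no test because these libraries chose the gene. Both values move with the scaling. They were -0.79 and -1.41 with quantile normalization and 0.69 and -0.39 with median centring. The difference between KO and WT at 1 h was -0.84 and -1.23 under these settings. By 18 h Actb had fallen in both genotypes, with log2 changes of -0.80 in WT (limma adjusted p = 7.19e-09) and -0.90 in KO (adjusted p = 1.16e-09). In every library a single enriched region of 17.3 to 19.9 kb covered the whole of Actb and reached the start of its neighbour Fbxl18, 7.69 kb away, so tags of this region are shared out evenly over both genes' windows. Taking the whole region in place of its share gave -1.04 for KO against WT at 1 h. Input in this window was 5.66 to 76.3 tags.

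Actg1 encodes gamma-actin, the second cytoplasmic actin (chr11:120345690-120348542, minus strand, ENSMUSG00000062825), and its pattern was the nearest to that of Actb. Its WT values were 1420, 1542 and 1537 tags at 0 h, 1323, 1383 and 1476 after 1 h, and 923.8, 854.8 and 849.9 after 18 h. The KO values were 1419, 1427 and 1292 at 0 h, 985.0, 884.9 and 885.8 after 1 h, and 901.9, 899.5 and 858.8 after 18 h. Again the genotypes overlapped at 0 h, and all 3 KO libraries lay below all 3 WT libraries at 1 h, but at 18 h they overlapped. At 1 h Actg1 was lower in KO by a log2 difference of -0.60 (SE 0.07, limma adjusted p = 2.62e-06), and this call held under all alternatives run. In WT the change over the first hour was -0.11 (adjusted p = 0.144), and in KO it was -0.58 (adjusted p = 2.77e-07). The difference between these changes was -0.48 (SE 0.09, adjusted p = 0.002), larger than the replicate spread. With median centring the change in KO was -0.0071 (adjusted p = 0.924) and that in WT 0.69. Whether Pol II on Actg1 fell in KO thus depends on the scaling. Without replicate 2 of each group the difference between the changes of KO and WT was -0.45, and its adjusted p was 0.089, the highest of a range over alternatives that began at 3.87e-05.

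Across the 10648 genes with Pol II in every library, those with a mean of at least 100 tags (7960 genes) were ranked by how closely their log2 values followed Actb over the 18 libraries. Actg1 came first, with Pearson r = 0.96, followed by Rec114 (0.92), Serpinb6b (0.92), Fbxl18 (0.91), which shares the region of Actb, and Lmna (0.91), which encodes the nuclear lamins A and C. Lmna held 654 ± 11.4 tags in WT and 493 ± 25.3 in KO at 1 h, from 804 ± 59.5 and 829 ± 21.7 at 0 h. Of the other cytoskeletal genes, Flna had r = 0.81 (rank 34), Myh9 0.72, Cfl1 0.71, Tln1 0.69, Vcl 0.60, Srf 0.45 and Tpm4 0.10, and Cnn2 was below the minimum. These are descriptions over libraries that share groups and depth, and are given without a p.

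Srf (chr17:46548329-46556175, minus strand, ENSMUSG00000015605), the transcription factor itself and a target of its own protein, did not follow the actins. Its Pol II values in WT were 142.8, 189.0 and 172.6 tags at 0 h, 66.3, 68.25 and 47.91 after 1 h, and 85.44, 75.23 and 70.43 after 18 h. In KO they were 202, 184.8 and 146.4 at 0 h, 95.96, 84.61 and 80.1 after 1 h, and 92.82, 98.35 and 77.91 after 18 h. Srf thus dropped in both genotypes within 1 h, and at 1 h the KO libraries were above all WT libraries, while at 0 h and 18 h the genotypes overlapped. At 1 h Srf was higher in KO by 0.46 (SE 0.15, limma adjusted p = 0.017), against a median of 0.24 over all genes. This call is weak: it was lost without any 1 of the 3 replicate numbers and under 6 other settings, with adjusted p values from 0.009 to 0.733 over all alternatives. In WT the first hour of LPS lowered Srf by a log2 change of -1.34 (adjusted p = 1.72e-07) and in KO by -0.95 (adjusted p = 1.37e-05). Regions covered 22.3 to 77.3% of the Srf window over the libraries, and in WT on average 71.2% at 0 h and 25.5% at 1 h. Tags per covered kb were 26.6 ± 2.11 at 0 h and 27 ± 3.62 at 1 h in WT. A region is found only where tags pass the search, so a loss of tags and a loss of covered length cannot be told apart.

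Flna and Myh9 showed the lower KO level at 1 h together with the actins. Flna encodes filamin A, which crosslinks actin filaments (chrX:74223461-74249820, minus strand, ENSMUSG00000031328). Its values in WT were 2181, 2781 and 2544 tags at 0 h, 1517, 1477 and 1498 after 1 h, and 1560, 1542 and 1547 after 18 h, and in KO 2328, 2228 and 2155 at 0 h, 922.0, 896.2 and 879.8 after 1 h, and 1302, 1383 and 1361 after 18 h. The KO libraries at 1 h were the lowest of the 18, with no overlap with any other group. The difference between KO and WT was -0.73 at 1 h (SE 0.07, limma adjusted p = 3.49e-07), held under all alternatives run, and was -0.20 at 18 h (SE 0.07, adjusted p = 0.048). The call at 18 h was kept under 5 alternatives and lost under 11, among them leaving out any 1 replicate number. In contrast to Actb, Flna had already fallen in WT at 1 h (log2 change -0.73), and fell further in KO (-1.30), a difference between the changes of -0.57 (SE 0.10, adjusted p = 0.001). Relative to the median of all genes Flna in WT at 1 h was near the middle, and centring each library on its median turned its change to 0.07.

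Myh9 encodes the heavy chain of non-muscle myosin IIA, the motor that pulls on actin filaments (chr15:77760587-77842175, minus strand, ENSMUSG00000022443). WT libraries held 2379, 2840 and 2910 tags at 0 h, 1809, 1841 and 1702 after 1 h, and 2014, 2020 and 1997 after 18 h. KO libraries held 2559, 2482 and 2715 at 0 h, 1242, 1265 and 1226 after 1 h, and 1845, 1773 and 1764 after 18 h. As for Flna, the 3 KO libraries at 1 h were the lowest of all 18. The difference at 1 h was -0.52 (SE 0.07, limma adjusted p = 1.09e-05), and the change over the first hour differed between genotypes by -0.45 (SE 0.09, adjusted p = 0.003).

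The enriched regions of Myh9 differed between the genotypes at 1 h in how much of the gene they covered. Beyond the midpoint of the gene, a division made after the regions had been seen and given without a test, they were broken into pieces in KO and covered 47.2 to 58.6% of that part, against 93.3 to 98.5% in WT. The value of that part was 319 ± 46.7 tags in KO (274 to 367) and 851 ± 34.3 in WT (826 to 890) at 1 h. By 18 h the KO libraries were at 866 ± 71.4 and the WT libraries at 918 ± 80.4. Tags are shared evenly within a region, so the values of a part of the gene do not place the difference along it. Within 500 bp of the start the difference was 0.13 on the log2 scale, and per covered kb it was -0.10, and neither was called (limma adjusted p = 0.482 and 0.184, in a range over alternatives that began at 2.37e-09). The value within 500 bp is the mean density of the whole region over the start, so it does not measure the start alone. In KO at 1 h it was 33.9 tags in replicate 3, whose first region ended at 14.9 kb. Replicates 1 and 2 held 22.4 and 21.7 tags.

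**Figure D2:**
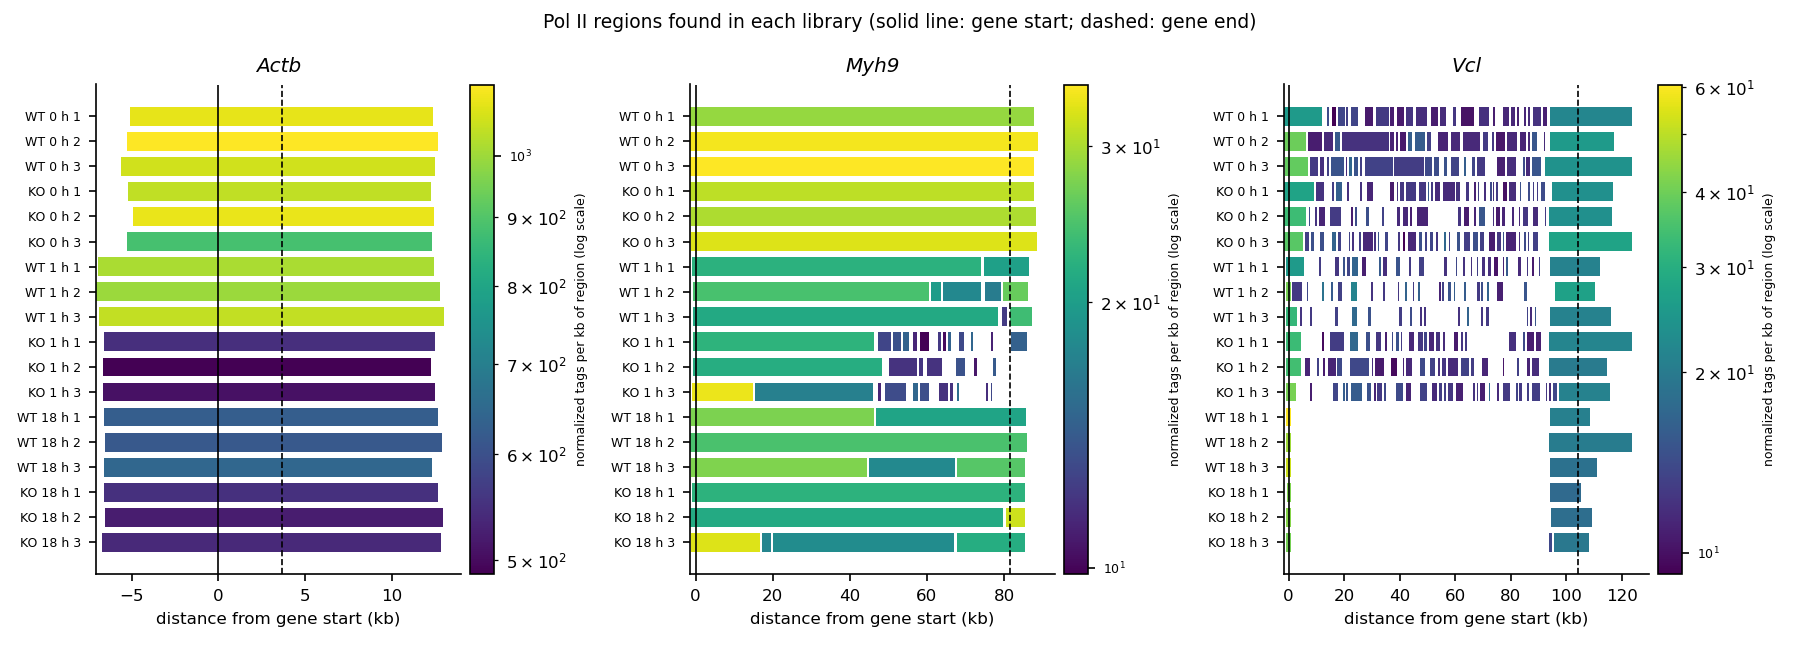
Enriched Pol II regions of each library over Actb, Myh9 and Vcl, placed by distance from the gene start in kb along the direction of transcription. Each row is a library, ordered by hours of LPS and genotype, colour gives normalized tags per kb of region on a log scale, and solid and dashed lines mark gene start and end (regions are drawn up to the edges of the panels); on Myh9 the regions of KO at 1 h cover 47.2 to 58.6% of the part beyond the midpoint, and on Vcl the regions at 18 h are confined to the start and the end of the gene.

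Vcl and Tln1 encode vinculin and talin 1, which link integrins to actin filaments, and neither was lower in KO at 1 h. Vcl (chr14:20929398-21033676, plus strand, ENSMUSG00000021823) held 1151, 1346 and 1358 tags in WT at 0 h, 707.5, 601.2 and 524.9 after 1 h, and 309.2, 290.8 and 274.8 after 18 h. In KO it held 994.7, 857.9 and 1039 at 0 h, 823.2, 901.8 and 826.0 after 1 h, and 240.4, 246.3 and 244.3 after 18 h. KO was below WT at 0 h, above it at 1 h and below it at 18 h, each time with no overlap. Vcl was lower in KO at 0 h (-0.41, SE 0.10, limma adjusted p = 0.017) and higher at 1 h (0.48, SE 0.10, adjusted p = 0.001). The call at 0 h was lost under 7 alternatives, among them without replicate 2 or 3, and its sign turned under 1. The first hour of LPS lowered it in WT (-1.07, adjusted p = 1.92e-08), whereas in KO the change was -0.18 (adjusted p = 0.114), and the difference between the changes was 0.89 (SE 0.14, adjusted p = 0.000427). By 18 h it had fallen by a log2 change of -2.10 in WT, the largest of the 10 genes there, and of -1.94 in KO (SE 0.10), next to -1.91 for Tln1 (SE 0.06).

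These values of Vcl moved together with the length over which regions were found. A region is found only where tags pass the search, so fewer tags and a shorter length cannot be told apart. Regions covered 11.4 to 84.0 kb of a 105 kb window, in up to 35 pieces, and per covered kb the difference at 1 h was -0.12, with 18.4 ± 1.27 tags in WT and 16.1 ± 0.67 in KO. Over the first 90 kb of the gene, a division made after the regions were seen, the WT means were 999 ± 98.7 tags at 0 h, 376 ± 91.0 at 1 h and 76.7 ± 10.7 at 18 h, and the KO means were 693 ± 86.3, 624 ± 53.5 and 54.9 ± 2.81. The rest of the gene, which overlaps Ap3m1 at its end, stayed between 189 and 286 tags in all 6 group means. Input in the window was 45.8 to 569 tags, from 18.8% of the ChIP mean in KO at 18 h to 179% in WT at 18 h, where it was above the ChIP values. Input subtraction left all 3 WT libraries of 18 h and 1 of those of 1 h at 0, so differences against these groups are then set by the pseudocount and by single input libraries, and none is given. The calls at 0 h (-0.98, limma adjusted p = 0.317) and for the change to 18 h in KO (-1.29, adjusted p = 0.064) were lost with it.

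Tln1 (chr4:43531519-43562691, minus strand, ENSMUSG00000028465; Creb3 overlaps it) had the largest drop of the 10 genes within 1 h, in both genotypes. Its values were 3772, 4154 and 4308 tags in WT and 4804, 4645 and 4471 in KO at 0 h, 1275, 1365 and 1218 in WT and 1382, 1305 and 1481 in KO at 1 h, and 1276, 1284 and 1259 in WT and 1252, 1232 and 1192 in KO at 18 h. The untreated libraries were all at 3772 or more, and all stimulated libraries at 1481 or less. The log2 change at 1 h was -1.66 in WT (limma adjusted p = 4.72e-14) and -1.73 in KO (adjusted p = 2.63e-14). At 1 h KO differed from WT by 0.11 (95% interval -0.02 to 0.24, adjusted p = 0.158), an interval that excludes a loss of the size seen for the actins, and with median centring the sign turned (-0.14).

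Tpm4, Cnn2 and Cfl1 encode proteins that bind along or take apart filaments. Tpm4, tropomyosin 4 (chr8:72134975-72153142, plus strand, ENSMUSG00000031799), was the 1 gene of the 9 tested that was called higher after 1 h of LPS. It held 993.4, 1060 and 1074 tags in WT and 924.0, 978.6 and 1004 in KO at 0 h, and 2063, 2088 and 2150 in WT and 1803, 1665 and 1724 in KO at 1 h. At 18 h it held 942.4, 665.9 and 793.1 in WT and 933.2, 1002 and 914.2 in KO. The rise at 1 h was 1.00 in WT (limma adjusted p = 8.98e-09) and 0.83 in KO (adjusted p = 1.34e-07), and all KO libraries were below all WT libraries then. Tpm4 was lower in KO at 1 h by -0.28 (SE 0.09, adjusted p = 0.018), a call lost without replicate 2 (-0.26) and without replicate 3 (-0.26). At 18 h it was higher in KO by 0.26 (SE 0.09, limma adjusted p = 0.050), or by 0.09 without replicate 2, with overlapping libraries. This call was lost under 10 alternatives, and with whole regions the difference turned to -0.42. Enriched regions of Tpm4, 21.4 to 59.9 kb long, ran past the gene.

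Cnn2, calponin 2 (chr10:79988584-79996062, plus strand, ENSMUSG00000004665; Abca7 lies beside it), was low throughout, with regions over 18.4 to 48.7% of its window. Its values ranged from 38.2 to 116 tags at 0 h and from 38.8 to 60.1 at 1 h, where KO differed from WT by -0.23 (95% interval -0.78 to 0.32, limma adjusted p = 0.486). At 18 h it held 88.98, 72.67 and 88.31 tags in WT and 155.1, 107.8 and 148.1 in KO, and in KO this was a rise from 0 h of 0.93 (adjusted p = 0.005), a call lost without replicate 3 (0.54), within 500 bp of the start (0.59) and with whole regions (1.38), with adjusted p values up to 0.311. Cfl1, cofilin 1, which severs filaments and returns monomers to the pool (chr19:5490455-5495201, plus strand, ENSMUSG00000056201; Snx32 lies beside it), held 631.3, 960.8 and 848.4 tags in WT and 1069, 811.2 and 1002 in KO at 0 h, and 719.8, 668.0 and 798.1 in WT and 678.0, 644.0 and 646.4 in KO at 1 h. At 18 h its values were 607.7, 565.9 and 602.2 in WT and 574.1, 375.2 and 477.5 in KO. The genotypes overlapped at all 3 times, and at 1 h the difference was -0.15 (95% interval -0.46 to 0.16, adjusted p = 0.430). Its fall by 18 h was called in both genotypes, -0.43 in WT (adjusted p = 0.016) and -1.01 in KO (adjusted p = 9.27e-06), and its regions of 11.7 to 46.1 kb also ran past the gene.

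**Figure D3:**
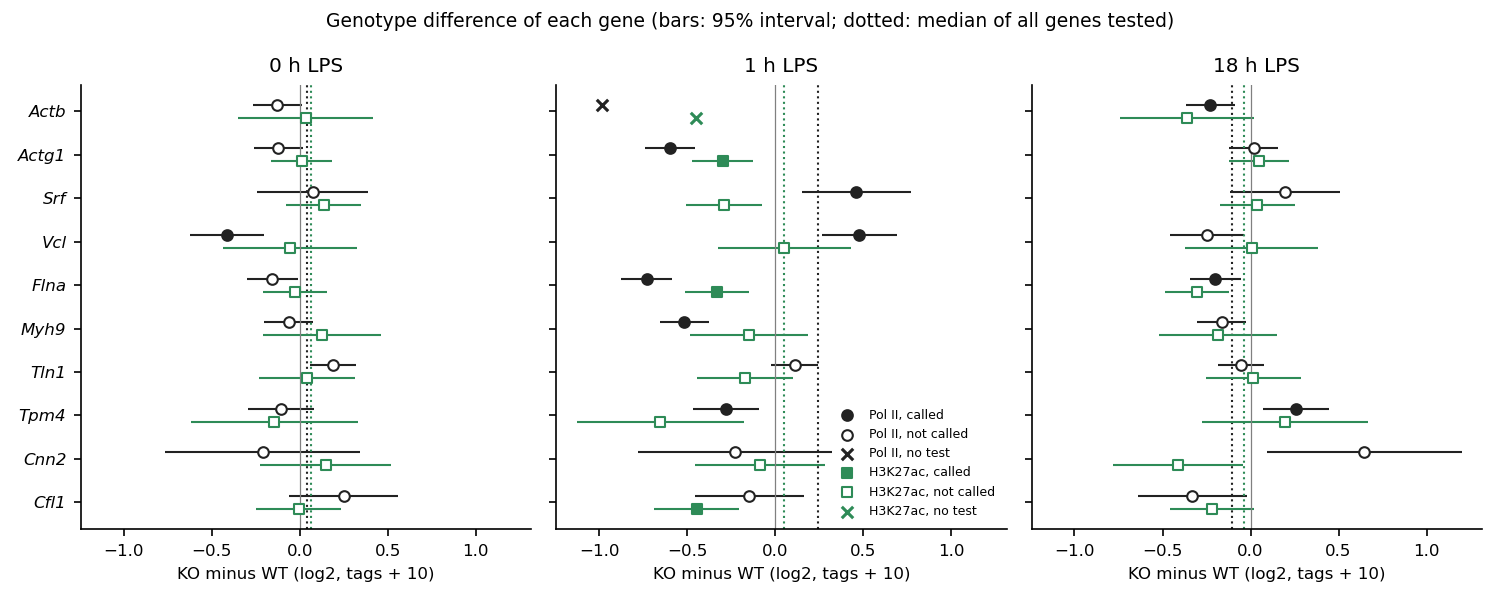
Log2 difference KO minus WT of each gene at 0 h, 1 h and 18 h of LPS for Pol II and H3K27ac. Points are limma estimates, bars 95% intervals, the dotted line the median of all genes tested (0.24 for Pol II at 1 h), and the cross marks Actb at 1 h, which has no test; for Pol II at 1 h Actg1, Flna, Myh9 and Tpm4 lie below 0 and Srf and Vcl above.

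The lower Pol II of KO at 1 h was, with the groups as labelled, shared by 4 of the 9 other genes, Actg1, Flna, Myh9 and Tpm4, while Srf and Vcl were higher and Tln1, Cnn2 and Cfl1 were not called. Among all 12079 genes tested in that comparison 45.6% were called, 38.1% higher and 7.53% lower, and the median gene was 0.24 higher in KO. These shares depend on the scaling, with 15.8% higher and 21.2% lower under median centring and 15.8% higher and 13.9% lower under quantile normalization. Among the 9 genes, median centring called Cfl1 lower with the same 4 and neither Srf nor Vcl higher (adjusted p = 0.234 and 0.051), and quantile normalization called the same 4 lower and Vcl higher. All 3 KO libraries lay below all 3 WT libraries for 4 of the 9 and above them for 2, where 10.6% of all genes were wholly lower and 45.8% wholly higher. Relative to the median of all genes, the differences were -0.84 for Actg1, -0.97 for Flna, -0.76 for Myh9, -0.52 for Tpm4, 0.22 for Srf and 0.24 for Vcl, with -1.23 for Actb. The count of 6 called genes was 2 when only 500 bp around the gene start were used and 3 when tags per covered kb were used. The 500 bp values are the mean density of the region over the start, so the count of 2 does not measure the starts alone.

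At 0 h and 18 h few of the 10 genes differed between genotypes. Vcl was the only call at 0 h, where 6.88% of all genes were called, 2.71% lower. At 18 h there were 3, Actb and Flna lower and Tpm4 higher, where 20.9% of all genes were called (7.55% higher, 13.4% lower) and the median gene was -0.10. Median centring gave 15.2% higher and 7.75% lower, and input subtraction 32.0% and 6.30%. Among the 10 genes median centring called Tpm4 and Cnn2 higher and none lower. Leaving out 1 replicate number at a time left 0 to 2 calls at 0 h and 0 to 1 at 18 h. The test of the change over the first hour between genotypes called 4 of the 9 genes other than Actb, Actg1, Flna and Myh9 downwards and Vcl upwards, against 18.4% of all genes (14.2% higher, 4.22% lower, or 6.72% and 12.9% with median centring). For Actb this difference was -0.86, given without a test. Without replicate 2 of each group Flna was the 1 call left (adjusted p = 0.015), with 0.059 for Vcl and for Myh9, and over all alternatives the adjusted p reached 0.343 for Flna, 0.719 for Vcl and 0.771 for Myh9. For the change over 18 h the same test called none of the 10, with 4 at an unadjusted p below 0.05, where 14.7% of all genes were called.

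On the scale of tags per 10 M tags, the calls after LPS went mostly downwards. At 1 h in WT, 6 of the 9 genes other than Actb were called, Tpm4 higher and Srf, Vcl, Flna, Myh9 and Tln1 lower, where 86.9% of all genes were called (18.5% higher, 68.3% lower) with a median change of -0.82. With median centring 37.2% were higher and 38.2% lower, and with quantile normalization 34.0% and 38.6%. Of the 9 genes median centring called 4 higher (Actg1, Myh9, Tpm4 and Cfl1) and 3 lower (Srf, Vcl and Tln1). Against that median Actb and Actg1 in WT were high, with 0.69 each after median centring, and Myh9 turned to 0.20. In KO, 7 of the 9 were called at 1 h, Tpm4 higher and all others but Vcl and Cnn2 lower, where 82.9% of all genes were called (20.6% higher, 62.2% lower) with a median of -0.62 (36.3% higher and 38.3% lower with median centring). With median centring the change of Cfl1 in KO turned from -0.53 to 0.04 and that of Vcl from -0.18 to 0.40. The call of Actg1 was lost then (-0.0071, limma adjusted p = 0.924). At 18 h the median of all genes was near its untreated level in WT (-0.00) and at -0.18 in KO. In WT 9 of the 10 were lower, all but Cnn2, with log2 changes from -0.39 (Tpm4) to -2.10 (Vcl), where 33.3% of all genes were called lower and 66.5% in either direction. In KO 8 were lower, from -0.52 (Myh9) to -1.94 (Vcl), and Cnn2 was higher, where 42.1% of all genes were called lower, 28.0% higher and 70.1% in either direction. With input subtracted the shares of all genes lower than at 0 h became 40.9% in WT and 31.2% in KO.

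**Figure D4:**
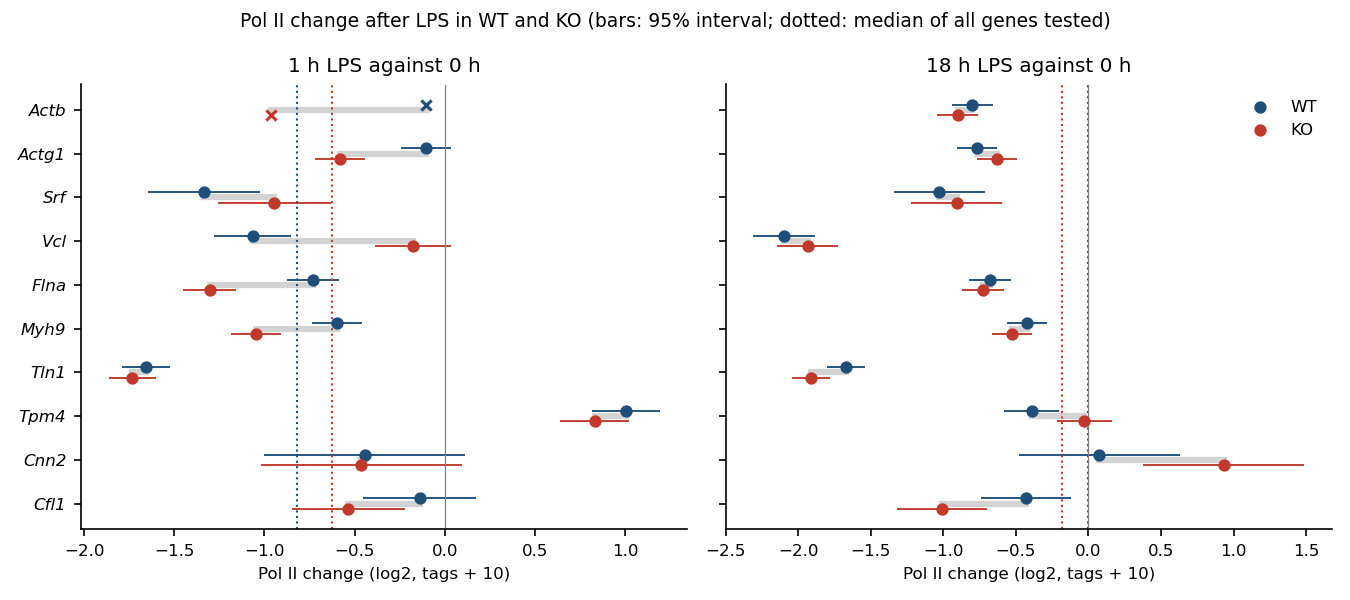
Log2 change of Pol II after 1 h and 18 h of LPS against 0 h for the 10 genes in WT and KO. Points are limma estimates with 95% intervals, crosses mark Actb at 1 h, which has no test, and dotted lines are the medians of all genes tested; at 1 h Actb is at -0.11 in WT and -0.96 in KO, and Vcl at -1.07 in WT and -0.18 in KO.

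H3K27ac, the acetylation of histone H3 that marks active promoters and enhancers, was also measured at the gene starts, and at 1 h Actg1 and Flna were called lower in KO in both Pol II and H3K27ac, and Cfl1 in H3K27ac alone. At the start of Actb it was 1487, 1530 and 1602 tags in WT and 1595, 1537 and 1594 in KO at 0 h, 1730, 1749 and 1928 in WT and 1433, 1310 and 1208 in KO at 1 h, and 1973, 1982 and 2064 in WT and 1003, 1900 and 1999 in KO at 18 h. The genotypes overlapped at 0 h and were apart at 1 h. The value of 1003 at 18 h belongs to KO replicate 1, 1 of the 2 libraries. At 1 h the log2 difference for Actb was -0.45, then -0.51 without the 2 libraries and -0.33 with replicate 1 as the only KO 1 h library, given without a test. In WT the H3K27ac means were higher at the later times, and the Pol II means lower: H3K27ac means were 1540 ± 57.9, 1802 ± 109.5 and 2006 ± 50.0 tags at 0 h, 1 h and 18 h and Pol II means 5085 ± 155, 4724 ± 115 and 2914 ± 65.9. The change from 0 h to 18 h in WT was 0.38 (limma adjusted p = 0.091, from 0.00014 to 0.327 over the alternatives), and Actb was called higher when the 2 libraries were left out. In KO the change of H3K27ac over the first hour was -0.26, and -0.32 without the 2 libraries, given without a test.

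Of the other 9 genes, 3 had lower H3K27ac in KO at 1 h, where 18.2% of all genes were called (11.0% higher, 7.26% lower, or 9.17% and 11.0% with median centring). Actg1 held 935.1, 949.5 and 1075 tags in WT and 791.6, 861.7 and 746.4 in KO (-0.30, SE 0.08, limma adjusted p = 0.023). Flna held 434.6, 409.7 and 444.9 in WT and 332.5, 350.3 and 335.8 in KO (-0.33, SE 0.09, adjusted p = 0.019). Cfl1, whose window reaches into Mus81, held 1287, 1335 and 1141 in WT and 1057, 876.3 and 830.7 in KO (-0.45, SE 0.11, adjusted p = 0.017). In all 3 the genotypes did not overlap, as for 13.0% of all genes in this direction. KO 1 h replicate 1, the library nearer to WT 1 h across the genome, gave the middle value of the 3 KO libraries for Actg1, the lowest for Flna and the highest for Cfl1. For Tpm4 the same library held 813.7 tags, against 461.8 and 511.1 in the other KO libraries and 844.3, 986.5 and 912.7 in WT, and the difference was -0.65 (adjusted p = 0.053). Srf differed by -0.29 (adjusted p = 0.056).

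Without the 2 libraries, where KO at 1 h rests on replicates 2 and 3, 6 of the 9 were called lower at 1 h, Actg1 (-0.29), Srf (-0.40), Flna (-0.32), Tln1 (-0.34), Tpm4 (-0.90) and Cfl1 (-0.55), with 59.8% of all genes called then (35.5% higher, 24.3% lower). With replicate 1 as the only KO 1 h library 1 of the 9 was called, Flna (-0.36, limma adjusted p = 0.005), where 8.57% of all genes were called. The values of Actg1 (-0.31, adjusted p = 0.066), Cfl1 (-0.24, adjusted p = 0.319), Tpm4 (-0.16, adjusted p = 0.519) and Srf (-0.07, adjusted p = 0.770) were also below 0, and that of Tln1 (0.16, adjusted p = 0.523) above. Calls of Srf, Tln1, Tpm4, Actg1 and Cfl1 at 1 h thus depend on which KO 1 h libraries are used. Without replicate 2 or without replicate 3 none of the 9 was called by limma, with 3 and 2 at an unadjusted p below 0.05. The change over the first hour gave no call between genotypes for the 9 genes with all libraries, with 4 at an unadjusted p below 0.05 and 0.535% of all genes called, whereas without the 2 libraries 6 were called lower, with 47.8% of all genes called (22.9% lower), and with replicate 1 as the only KO 1 h library 1 was called, Flna (-0.33, adjusted p = 0.039), with 3.65% of all genes called. At 0 h none of the 10 genes was called, nor had any an unadjusted p below 0.05 in limma, with 0.77% of all genes called (10.2% without the 2 libraries, where again none of the 10 was called). The 2 libraries are not part of this comparison, but they enter the shared estimate of the spread. At 18 h none was called and 2 had an unadjusted p below 0.05, with 3.2% of all genes called. Without the 2 libraries Vcl (-0.30) and Flna (-0.18) were lower at 18 h, with 18.9% of all genes called. For the change over 18 h none of the 10 was called, 2 had an unadjusted p below 0.05, and 0.605% of all genes were called. Without the 2 libraries again none was called by limma, with none at an unadjusted p below 0.05 and 14.3% of all genes called.

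**Figure D5:**
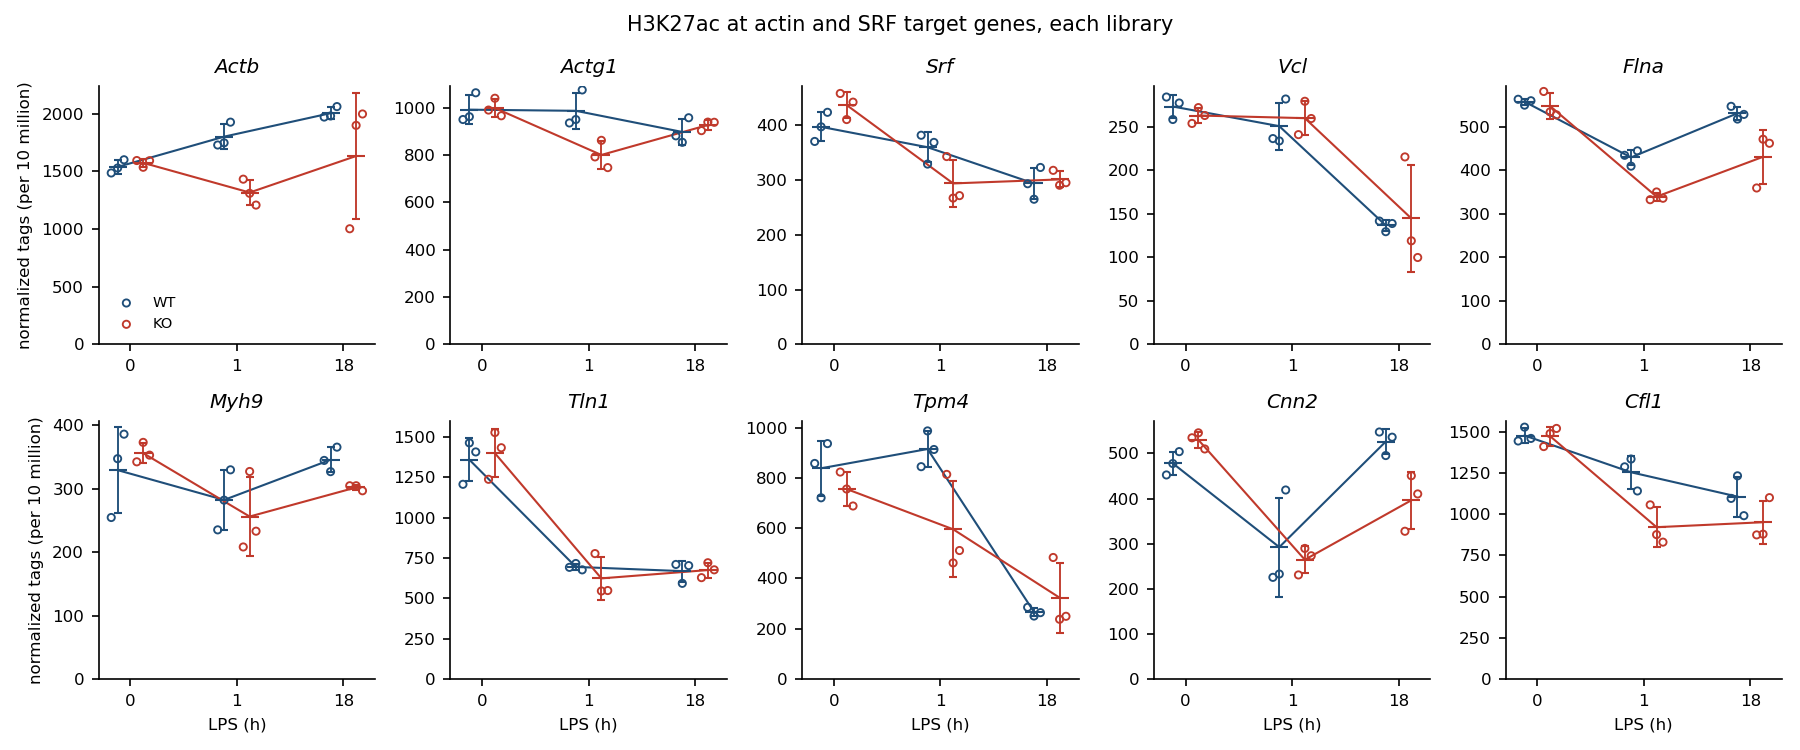
H3K27ac at the starts of the 10 genes, in normalized tags per 10 M over the gene start ± 2500 bp, against hours of LPS (equally spaced, not to scale), for WT and KO. Open circles are libraries, dashes with bars means ± SD of 3 libraries, and lines join the means; KO replicate 1 at 18 h is the low circle of Actb (1003) and KO replicate 1 at 1 h the high circle of Tpm4 (813.7).

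The H3K27ac calls after LPS were all in the lower direction. At 1 h in WT 3 of the 9 genes other than Actb were called, Flna (-0.37), Tln1 (-0.95) and Cnn2 (-0.75), where 29.2% of all genes were called lower and 54.5% in either direction, and without replicate 2 there was 1. At 1 h in KO 7 of the 9 were called, Actg1 (-0.32), Srf (-0.56), Flna (-0.67), Myh9 (-0.48), Tln1 (-1.17), Cnn2 (-0.98) and Cfl1 (-0.68), where 26.6% were called lower and 46.9% in either direction. The call of Myh9 was lost under 5 alternatives and its sign turned under 1, with adjusted p values up to 0.918. With replicate 1 as the only KO 1 h library the same 7 were called, with 59.3% of all genes. At 18 h in WT 5 were called, Srf (-0.43), Vcl (-0.95), Tln1 (-1.01), Tpm4 (-1.61) and Cfl1 (-0.42), where 26.4% were lower and 49.9% in either direction. At 18 h in KO 6 were called, Srf (-0.52), Vcl (-0.89), Flna (-0.35), Tln1 (-1.04), Tpm4 (-1.27) and Cfl1 (-0.63), where 34.2% were lower and 52.6% in either direction (28.1% lower with median centring). Without the 2 libraries these counts were 4, 7, 6 and 7, with Actb the 1 gene called higher at 18 h in each genotype, and 70.6%, 62.5%, 68.2% (32.0% higher) and 68.0% (21.7% higher) of all genes were called. Tln1 lost H3K27ac together with Pol II at both times in both genotypes. At the start of Tln1 the H3K27ac values were 1207 to 1527 tags in the untreated libraries and 545.9 to 777.6 in the stimulated ones. Tpm4, where Pol II rose at 1 h, had 838 ± 109 tags of H3K27ac in WT at 0 h, 914 ± 71.1 at 1 h and 267 ± 17.5 at 18 h. With whole regions in place of their share, the H3K27ac change of Tpm4 at 18 h turned to 0.81 in WT and 1.07 in KO.

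The genes around this group in the pathway were taken from lists written, like the group itself, with earlier results of these data known. Of 10 SRF regulators, 6 had more Pol II in KO at 1 h and none less, with a list median of 0.34 against 0.24 for all genes, of which 38.1% were called higher and 7.53% lower. The largest differences were those of Elk3, a ternary complex factor (1107 tags in KO and 672 in WT, log2 difference 0.71, limma adjusted p = 1.94e-05), and Mrtfb, the actin-sensing coactivator (1498 and 940 tags, 0.67, adjusted p = 0.001). Of 16 other cytoskeletal SRF targets tested, 2 were higher and 3 lower, with a median of 0.07. Lima1, which crosslinks filaments, was higher (841 and 233 tags, 1.81), as was Tpm1 (0.39), and Tagln2, transgelin 2, was lower (533 and 1385 tags, -1.36), as was Zyx, zyxin of focal adhesions (-0.24).

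Of 8 early-response genes of SRF, 5 were higher and 2 lower in KO at 1 h, with a median of 0.33, where 38.1% of all genes were higher and 7.53% lower (15.8% and 21.2% with median centring). Egr3 (84.6 tags in KO and 8.14 in WT, log2 difference 2.45) and Egr1 (282 and 173 tags, 0.67) were higher, and Egr2 (625 and 1027 tags, -0.71) and Ier2 (176 and 274 tags, -0.62) were lower. Of 16 genes of actin filament dynamics, 4 were higher and 2 lower against the same shares, with a median of 0.02. Gsn, gelsolin (43.8 and 21.9 tags, 0.77), and Cotl1 (137 and 95.9 tags, 0.47) were higher, and Lcp1, L-plastin of leukocytes (19187 and 23282 tags, -0.28), and Actr2, a subunit of the Arp2/3 complex (2303 and 2565 tags, -0.15), were lower. None of 3 reference genes, Rplp0, Hprt and Gapdh, was called by limma at 1 h, nor had any an unadjusted p below 0.05, and their median was 0.18. Calls in both directions were thus found in 3 of these 5 lists.

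At 0 h these 5 lists, 52 genes tested in all, held 3 calls higher and 1 lower in KO, where 6.88% of all genes were called, and at 18 h 4 higher and 13 lower among 53, where 7.55% of all genes were higher and 13.4% lower. Of the 8 macrophage markers, 4 were lower and 1 higher in KO at 1 h, with a list median of -0.38 against 0.24 for all genes, of which 7.53% were lower and 38.1% higher, while at 0 h 1 was higher and none lower. In the test of the change over the first hour between genotypes, again 4 were lower and 1 higher, with a median of -0.44 against 0.17 for all genes, of which 4.22% were lower and 14.2% higher. Among them, Adgre1 (13172 tags in KO and 22417 in WT, log2 difference -0.77) and Fcgr1 (117 and 230 tags, -0.92) were lower and Csf1r (1142 and 849 tags, 0.42) higher in KO at 1 h by the same test. At 18 h 5 of the 8 had less Pol II in KO and 1 more, where 13.4% of all genes were lower and 7.55% higher. With all libraries, 3 of the 8 had more H3K27ac in KO at 1 h and none less, where 18.2% of all genes were called. The H3K27ac list median was 0.044 against 0.051 for all genes. The summed Pol II of the granulocyte markers was higher in KO than in WT at 0 h (39.3 to 45.3 against 15.9 to 22.6 tags) and at 1 h (8.62 to 17.0 against 0 to 8.10). Their H3K27ac was also higher, at 0 h (162 to 179 against 72.4 to 86.4 tags) and at 1 h (105 to 124 against 59.6 to 70.4). S100a8 held 129 tags of H3K27ac in KO and 42.0 in WT at 0 h, while Mpo and Ly6g were at 0 in all 36 libraries. The lymphocyte markers summed at 1 h to 59.5 to 77.8 tags of Pol II in KO and 41.4 to 53.0 in WT, and to 114 to 272 and 106 to 116 of H3K27ac, with Cd3e at 0 in all 36 libraries. The part of these marker differences in the values of the actin genes was not tested.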

How the data were processed

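ChIP-seq of Pol II and H3K27ac was made from 36 libraries (6 groups of 3 for each antibody) with 6 inputs. Per the study's methods and the submitters' processing notes, the authors used Skewer for trimming and HISAT2 (version 2.1.0) for alignment to mm10, removed duplicates and called enriched regions in each library with HOMER (histone style, 500 bp windows, regions closer than 1000 bp stitched, Poisson p 0.001) without input as control. The catalogue number of the Pol II antibody differs between the labels and the methods. The deposited normalized tag count of each region is a signal in tags per 10 M tags of the library, and the deposited region score was not used. A value of 0 means that no region passed the search. The tags are not whole reads, so no count test was run, and depth (21.7 to 36.1 M tags for Pol II, 13.5 to 55.4 M for H3K27ac) sets what the search can find, though its effect on single genes was not tested.

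Region values were shared by overlap over gene windows of the GENCODE vM21 annotation (21897 protein-coding genes, 54 left out for a repeated symbol). log2(tags + 10) was fitted with limma 3.58.1 in R 4.3.3 (6 group means, intensity trend, all 18 libraries of an antibody) and p-values were Benjamini-Hochberg adjusted over all genes tested. The script was tested on simulated data for KO against WT at 1 h, with the same spread in every gene. For Pol II it recovered 44 of 50 genes changed 0.5-fold, 5 at 0.7-fold, 15 at 1.5-fold and 49 at 2-fold. For H3K27ac it recovered 38, 1, 5 and 39 of 50. Lack of a call thus does not show that a gene was unchanged. The interaction compares the KO response to LPS with the WT response (KO minus WT). The 10 genes and all lists were chosen with earlier results of these data known. All 10 genes are described; of each further list, genes are named where called and not overlapping between groups, at most the 2 largest in each direction, and likeness to Actb names the 5 highest r. Alternatives were other pseudocounts (1 and 50), filters, scalings, windows, whole regions, density, a density floor, input subtraction, a replicate block, fits to the compared groups only, and leaving out libraries, with 1 H3K27ac setting (KO 1 h replicate 1 as the only KO 1 h library) added after the data were seen. RefSeq promoters were read from GRCm38.p6.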

Additional observations from a re-analysis of the deposited data

Results flagged for a closer look

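The change of Pol II over the first hour of LPS differed between KO and WT, by a limma test of the difference itself, for 4 genes. It was more negative in KO for Actg1 (log2 difference of the changes -0.48), Flna (-0.57) and Myh9 (-0.45) and less negative in KO for Vcl (0.89). Of all genes tested, 18.4% were called, 14.2% higher and 4.22% lower. Leaving out 1 replicate number at a time left 1 to 4 calls. Over all alternatives the limma adjusted p reached 0.089 for Actg1, 0.343 for Flna, 0.719 for Vcl and 0.771 for Myh9. The sign turned for Vcl per covered kb (-0.18) and for Myh9 within 500 bp of the start (0.18). In the libraries, Actg1 went from 1500 ± 69.2 to 1394 ± 77.0 tags in WT and from 1379 ± 75.5 to 919 ± 57.6 in KO (SD, n = 3), and Vcl from 1285 ± 116 to 611 ± 91.7 in WT and from 964 ± 94.4 to 850 ± 44.6 in KO. Flna went from 2502 ± 302 to 1497 ± 20.2 in WT and from 2237 ± 87.0 to 899 ± 21.3 in KO, and Myh9 from 2710 ± 288 to 1784 ± 72.5 in WT and from 2585 ± 119 to 1244 ± 19.6 in KO.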

How the results depend on the processing

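Among the 10 genes the Pol II calls of Actg1 and Flna between genotypes at 1 h kept their direction and side of the threshold under all alternatives run, whereas their H3K27ac calls at 1 h were lost under 4 (Actg1) and 3 (Flna) alternatives, with adjusted p values up to 0.433 and 0.363. Per covered kb, the log2 values for Pol II on Vcl reversed to 0.059 (KO minus WT, 0 h), -0.12 (1 h), 0.11 (WT, LPS 1 h), 0.36 (WT, 18 h), 0.17 (KO, 18 h) and -0.18 (interaction, 1 h), and on Srf to 0.013 (WT, 1 h), 0.19 (WT, 18 h) and 0.078 (KO, 18 h). Within 500 bp of the start they reversed for Myh9 (0.13 between genotypes at 1 h, 0.18 for the interaction), for Vcl (0.12 at 1 h and 0.29 at 18 h in KO, 0.51 at 18 h in WT) and for Srf (0.14 and 0.27 in KO). Those values are the mean density of the region over the start and not a measure of the start alone. Median centring reversed Tln1 between genotypes at 1 h (-0.14), in WT at 1 h of LPS Actb (0.69), Actg1 (0.69), Flna (0.066) and Myh9 (0.20), and in KO at 1 h Vcl (0.40) and Cfl1 (0.040). Whole regions reversed Tpm4 between genotypes at 18 h (-0.42), Actb in WT at 1 h (0.038) and, for H3K27ac, Tpm4 at 18 h (0.81 in WT, 1.07 in KO) and Myh9 in KO at 1 h (0.022). The cause was not tested.

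Counts of called genes moved as follows. For Pol II between genotypes, the count of 1 at 0 h became 4 with quantile normalization, 2 with median centring and 0 with the narrow window, whole regions, density, the density floor, input subtracted or only the groups compared. The 6 at 1 h became 2 (narrow window) and 3 (density), and the 3 at 18 h became 0 (narrow window, density), 1 (no filter, a region in every library, density floor, replicate block) and 5 (only the groups compared). The 9 in KO at 18 h became 5 (narrow window). The interaction count of 4 at 1 h became 7 (median centring), 1 (narrow window) and 2 (density), and the 0 at 18 h became 3 (quantile normalization, input subtracted), 2 (median centring) and 1 (whole regions). For H3K27ac between genotypes, the 3 at 1 h became 5 (quantile normalization, median centring, input subtracted, replicate block), 0 (only the groups compared) 6 (without KO 1 h replicate 1 and KO 18 h replicate 1, the 2 libraries) and 1 (KO 1 h replicate 1 the only KO 1 h library), and the 0 at 18 h became 1 (whole regions, density, input subtracted) and 2 (without the 2 libraries, and in the setting with 1 KO 1 h library, which also leaves out KO 18 h replicate 1). The 3 in WT at 1 h became 5 (whole regions), and the interaction count of 0 at 1 h became 1 (whole regions, and KO 1 h replicate 1 alone) and 6 (without the 2 libraries). The Actb difference at 1 h ranged from -0.84 (quantile normalization) to -1.23 (median centring), and its interaction from -0.62 to -1.08.

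Leaving out 1 replicate number at a time, the Pol II counts between genotypes were 0 to 2 at 0 h, 4 to 5 at 1 h and 0 to 1 at 18 h, those after LPS 6 to 6 (WT, 1 h), 7 to 7 (KO, 1 h), 8 to 9 (WT, 18 h) and 8 to 9 (KO, 18 h), and those of the interaction 1 to 4 and 0 to 1. For H3K27ac, the 2 libraries included, they were 0 to 0, 0 to 6 and 0 to 2 between genotypes, 1 to 4 (WT, 1 h), 6 to 8 (KO, 1 h), 4 to 6 (WT, 18 h) and 6 to 7 (KO, 18 h) after LPS, and 0 to 6 and 0 to 0 for the interaction. The replicate numbers did not pair the libraries: deviations of same-numbered libraries from their group means correlated at -0.43 to 0.08 for H3K27ac and -0.07 to 0.11 for Pol II, and with the replicate block the called genes at 1 h between genotypes numbered 5 for H3K27ac, and 1 for Pol II at 18 h. Regions covered only part of the window on several genes, Vcl, Srf and Cnn2 among them for Pol II, and the part of depth in this was not tested.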
